A study of Mus musculus with 288 samples.

Results

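The wells described here held single sorted lung cells whose counts were rich in Sftpc, the gene of surfactant protein C. They were selected on Sftpc and Scgb3a1 values: a kept well entered when Sftpc made up at least 1% of its counts and Scgb3a1, a secretoglobin of upper airway secretory cells, under 1%. By this rule 63 of 227 kept wells were members, 27.8% (exact 95% interval 22.0 to 34.1%, counting error only). The other 164 kept wells comprised 74 with Scgb3a1 at 1% or more and 90 with both genes under 1%. The cells came from C57BL/6 mice, aged 4 months, of genotype Scgb1a1-CreER;Rosa26-mTmG, sorted as Epcam+ CD45- CD31- CD24low cells that carried the Scgb1a1 lineage label. All 286 sorted wells shared this genotype, age and gate, and 2 further wells were negative controls that held medium and no cell. The recombinase was driven by the promoter of Scgb1a1, the secretoglobin gene of club cells, and no induction schedule or animal is named in the labels used here. All wells were therefore 1 sample with no replicate, so that cells give values and counting intervals but no test. Calls of higher or lower genes rest on size alone, a ratio of at least 2 or at most 0.5.

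Alveolar type 2 cells are the secretory cells of the lung's gas exchange surface. They make surfactant, a mixture of phospholipids and surfactant proteins that lowers surface tension, assemble it in lamellar bodies, which are secretory organelles related to lysosomes, and release it into the alveolar fluid. They also act as progenitors of the flat alveolar type 1 cells, and some cells labelled through Scgb1a1 are known to carry alveolar type 2 genes.

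For the leading genes of the Sftpc wells, the bases just before the RefSeq transcript start show what stands upstream of genes that were high in the same wells. Of 13 genes looked up, 8 had an upstream sequence in the RefSeq table for GRCm38.p6, the assembly of mm10. The 3 sequences below, of 250 bases each, are those of a surfactant protein, a phosphate transporter and a lysozyme, shown because each holds 1 of the searched motifs. Capitals mark the motif, and sequences run 5′ to 3′ along the gene. The start used for Slc34a2 lies inside its GENCODE gene span, so its window stands before an internal start.
Sftpa1 (chr14:41131538-41131787, plus strand): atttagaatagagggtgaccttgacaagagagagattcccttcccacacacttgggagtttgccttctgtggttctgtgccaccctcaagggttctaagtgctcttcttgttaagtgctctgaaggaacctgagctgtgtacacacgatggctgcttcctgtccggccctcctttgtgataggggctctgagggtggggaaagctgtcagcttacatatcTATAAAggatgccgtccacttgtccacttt
Slc34a2 (chr5:53049103-53049352, plus strand): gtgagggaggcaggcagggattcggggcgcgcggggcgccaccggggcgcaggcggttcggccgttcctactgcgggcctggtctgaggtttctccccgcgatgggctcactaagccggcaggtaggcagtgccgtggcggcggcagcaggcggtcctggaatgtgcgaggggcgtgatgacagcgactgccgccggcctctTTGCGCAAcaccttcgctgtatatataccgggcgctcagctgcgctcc
Lyz1 (chr10:117292869-117293118, minus strand): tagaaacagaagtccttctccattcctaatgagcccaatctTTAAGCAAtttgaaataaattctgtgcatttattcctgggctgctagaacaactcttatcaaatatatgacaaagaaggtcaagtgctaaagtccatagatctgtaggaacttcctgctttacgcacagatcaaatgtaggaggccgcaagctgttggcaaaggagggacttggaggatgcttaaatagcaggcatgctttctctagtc
Sftpa1 held TATAAA, the TATA box, from position -30 (30 bases before the RefSeq start), and Slc34a2 held TTGCNNAA, a form of the site of C/EBP factors, from position -48. Lyz1 held the same C/EBP form farther upstream, read on the opposite strand. On either strand, TATAAA was found in 12.4% of 32851 mouse promoter windows of this length and TTGCNNAA in 9.56%. Among the 8 leading genes, 2 held TATAAA and 3 held TTGCNNAA. None of the 8 held CACTCAAG (a form of the NKX2-1 site), CCGGAA (an ETS form) or TCACNCCA (an SREBP form), which were found in 0.965%, 12.0% and 3.67% of the windows. These matches describe letters in a window and no factor's binding.

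The Sftpc wells held 2384 to 8806 counts (median 3529), fewer than the other kept wells (2419 to 15088, median 5853), and 948 to 2516 detected genes (median 1299, against 1627). Malat1, a nuclear RNA whose share can move with RNA quality, was higher in the Sftpc wells at 5476 against 1593 CPM, 3.44-fold (3.19 to 3.70). Its log2 ratios were 2.21, 1.61 and 1.29 within the 3 sets described next. In the first set 1 Sftpc well held 135 Malat1 counts and the others 7 to 18, so that ratio rests largely on 1 well. The part of depth and of Malat1 in the results below was not tested. The table lists wells in 3 successive sets of 96 columns, a position in the table and not a labelled batch. Sftpc wells were 6, 17 and 40 of the kept wells of these sets, or 7.32%, 21.0% and 62.5%. Class and set therefore overlapped, and ratios within sets are given beside only some of the results. The controls held 41 and 234 counts, of which Scgb1a1 gave 20 and 18 and Sftpc gave 0 in both.

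Sftpc took 2.07% to 24.7% of the counts of a member, with a median of 16.6%, and at most 0.73% of the counts of any other kept well. Scgb3a1 reached at most 0.08% in a member. No kept well held Sftpc between 0.73% and 2.07%, which describes the gene of the rule and is no support for the division. The 3 wells just inside held Sftpc at 2.07%, 5.36% and 6.70%, and the 3 just outside at 0.73%, 0.44% and 0.23%. The 3 wells just inside were all of the first set, and their Scgb1a1 shares were 20.5%, 24.3% and 24.1%. A share of wells with a count depends on depth, so shares were also taken after thinning each well to 3000 counts. Because Sftpc chose the wells, its pooled level of 152241 CPM (counts per 1000000 counts, summed over the class), against 187 in the other kept wells, is a description only.

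**Figure D1:**
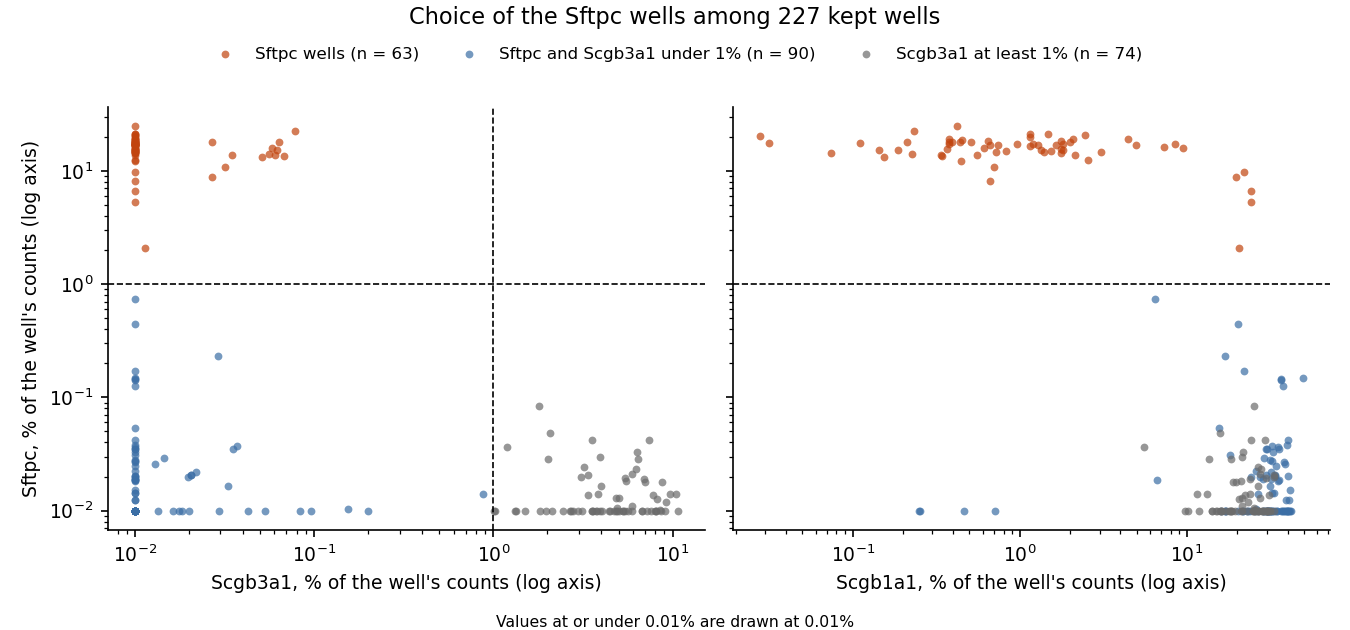
Each point is 1 of 227 kept wells, with Sftpc against Scgb3a1 (left) and Scgb1a1 (right), as percent of the well's counts on log axes. Dashed lines mark the 1% limits. The 63 Sftpc wells lie between 2.07% and 24.7% Sftpc, above every other kept well (at most 0.73%), and the 5 with over 10% Scgb1a1 have the lower Sftpc shares (2.07% to 9.80%, with 1 further well at 8.08%).

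The label of alveolar type 2-like cells was checked on the 4 markers that the choice had not used: Lyz2, Napsa, Slc34a2 and Lamp3. All 4 were detected in 60 of 63 Sftpc wells and 3 of them in the other 3 wells. Among the other 164 kept wells, 129 held none of the 4 and 1 held all 4. Summed, they made up 1363 to 33620 CPM in the Sftpc wells (median 17029) and at most 3002 CPM elsewhere, so that 62 of 63 Sftpc wells lay above every other kept well. The other well with all 4 markers was also the one nearest below the threshold, with 22 Sftpc counts of 2998. It held 1, 3, 3 and 2 counts of Lyz2, Napsa, Slc34a2 and Lamp3. The Sftpc well nearest above the threshold held 6, 4, 1 and 1 on a total of 8806, a lower share. By these markers the 2 wells at the threshold were therefore not separated.

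Lyz2, on chromosome 10, encodes the lysozyme shared by macrophages and alveolar type 2 cells. It ranged over the Sftpc wells from 0 to 25276 CPM with a median of 7350, and 62 of 63 wells held it. In the other kept wells the median was 0 and the highest 2020 CPM. In the pooled counts Lyz2 stood at 7878 against 36.3 CPM and was 217-fold higher (157 to 309, an exact 95% interval for counting error, as in the parentheses that follow). Lyz1, the neighbouring Paneth cell type lysozyme, ranged from 0 to 7538 CPM (median 1534) and was 464-fold higher (180 to 1712), the largest ratio among the leading genes apart from Sftpc. Their transcripts were identical at 96.0% of 1262 aligned bases, so the division of counts between Lyz1 and Lyz2 is uncertain. Napsa, the aspartic protease that processes surfactant proteins, had a median of 3113 CPM over the Sftpc wells and was 232-fold higher (135 to 437). Slc34a2, the sodium-phosphate cotransporter of the alveolar surface, was present in all 63 wells at 114 to 7882 CPM and was 108-fold higher (77.8 to 154). Lamp3, a membrane protein of lamellar bodies, was at a median of 1376 CPM and 293-fold higher (124 to 908). Sftpc, Lyz2, Napsa, Slc34a2 and Lamp3 span chr14:70520949-70524081, chr10:117277331-117282321, chr7:44572380-44586862, chr5:53038081-53071664 and chr16:19653378-19706375 in the GENCODE M21 annotation.

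**Figure D2:**
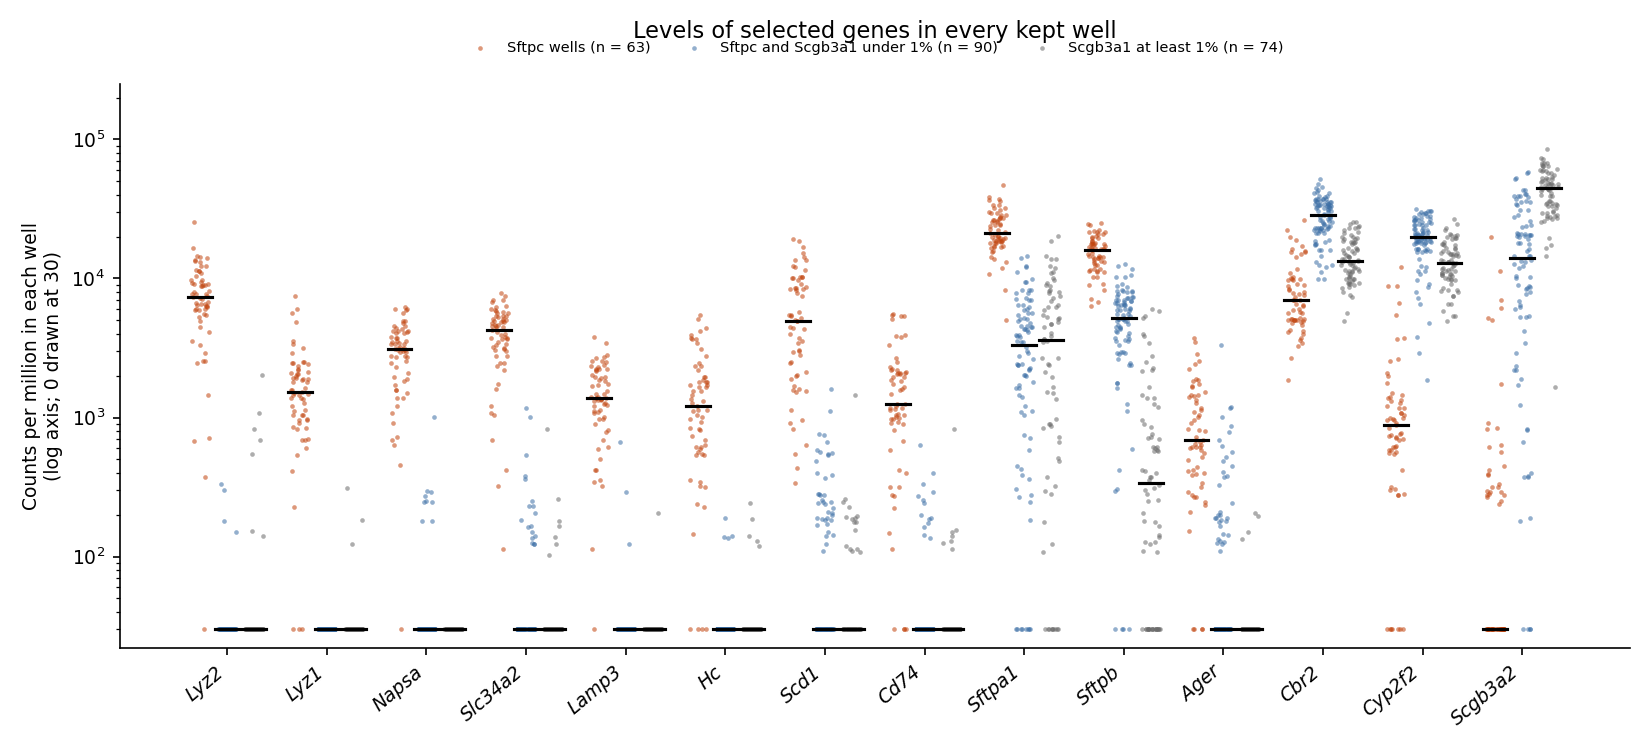
CPM of 14 genes in every kept well on a log axis, with a point per well, a bar at the class median, and 0 drawn at 30. For the first 8 genes the median of both other classes is 0, whereas Sftpa1, Sftpb, Cbr2, Cyp2f2 and Scgb3a2 have counts in most wells outside the Sftpc wells too.

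Over all genes, 341 of 2536 measured genes (at least 50 counts in both classes together) were at least 2-fold higher in the Sftpc wells than in the other kept wells, a background of 13.4%, and 306 were at least 2-fold lower, 12.1%. The higher genes were 52.7% of the calls. When totals were counted without Sftpc, the secretoglobins and Rn45s, the calls were 255 higher and 396 lower (39.2% higher), and with TMM factors 212 and 470 (31.1% higher). The median log2 ratio of all measured genes was 0.11, and the same 2 scalings moved it by -0.22 and -0.37. List medians below are on the first scale and are read against 0.11.

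The 3 surfactant protein genes that the choice of wells had not used were all higher, and together they gave 43070 CPM in the Sftpc wells and 8932 CPM elsewhere. Sftpa1, a collectin that binds lipid and microbes, ranged from 4997 to 47100 CPM (median 21098) and was 5.06-fold higher (4.87 to 5.27). Sftpb, the hydrophobic protein needed to form lamellar bodies, ranged from 6343 to 25000 CPM and was 4.79-fold higher (4.57 to 5.03). Sftpd, the second collectin, was 4.15-fold higher (3.86 to 4.47), with all 63 wells between 2195 and 13620 CPM. Sftpa1, Sftpb and Sftpd also had counts in most wells outside the class. Sftpa1 was detected in 147, Sftpb in 140 and Sftpd in 158 of the 164 other kept wells, and 34, 46 and 14 Sftpc wells exceeded the highest of them. For Lyz2, Napsa, Slc34a2 and Lamp3 these numbers were 58, 57, 57 and 53. Sftpb stood at 5358 CPM in the wells with Sftpc and Scgb3a1 under 1% and at 926 CPM in those with Scgb3a1 at 1% or more.

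Of 17 measured genes for lamellar bodies and surfactant lipid handling, Sftpc left out, 13 were higher, 1 lower and 3 neither (median log2 ratio 2.78). Lgi3, a secreted protein also found in alveolar type 2 cells, ranged from 0 to 3646 CPM and was 120-fold higher (57.0 to 302). Ctsh, a cathepsin that processes surfactant proteins, was 3.26-fold higher (2.71 to 3.91), with a log2 ratio of 0.87 within the first set. Npc2, a lysosomal sterol carrier, was detected in all 63 wells at 552 to 7315 CPM. It was 3.16-fold higher (2.89 to 3.45), but 1.98-fold against the wells with both chosen genes under 1%. The transporter Abca3, which loads lipid into lamellar bodies, was also among the higher genes. Prdx6, a peroxiredoxin with phospholipase activity, was the 1 lower gene, at 623 against 2005 CPM. Abca3 and Prdx6 were named after their values were seen.

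Of 23 other measured genes known from alveolar type 2 cells, 19 were higher, 2 lower and 2 neither (median 3.31). Hc, complement component 5, ranged from 0 to 5468 CPM with a median of 1216, and 56 of 63 Sftpc wells lay above every other kept well. It was 167-fold higher (86.9 to 368). The lung chemokine Cxcl15 was in every Sftpc well, at 1915 to 20025 CPM, and 10.5-fold higher (9.69 to 11.3). Chil1, a chitinase-like lectin, was 6.20-fold higher (5.54 to 6.94), and Cldn18, a tight junction claudin, 65.4-fold (33.5 to 146). The secreted ribonuclease gene Rnase4, which was on no list, was 66.9-fold higher (40.4 to 119). Cbr2, a carbonyl reductase also abundant in club cells, and Trf, transferrin, were the 2 lower genes. Egfl6, a secreted EGF-repeat protein, gave 75 counts in the Sftpc wells and 0 elsewhere, at least 106-fold higher against a floor of 3 counts over the group. Egfl6 was named after its values were seen.

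Lipid synthesis genes stood higher together. Of 15 measured genes for fatty acid synthesis and desaturation, 13 were higher and none lower (median 2.07), and the list sum was 11156 CPM against 1102 CPM. Scd1, the desaturase that makes monounsaturated fatty acids, was present in all 63 wells at 341 to 19184 CPM (median 4967). The 164 other kept wells reached at most 1595 CPM, and 52 Sftpc wells lay above all of them. Scd1 was 60.2-fold higher (49.2 to 74.2). Fasn, fatty acid synthase, was 16.8-fold higher (12.2 to 23.7), and Elovl1, an elongase of long-chain fatty acids, 19.4-fold (14.9 to 25.6). Fabp5, a fatty acid carrier, gave 573 against 2.95 CPM. Its ratio of 195 has a wide interval (65.2 to 955), as only 3 counts lay outside the Sftpc wells. All 5 measured genes of cholesterol synthesis and uptake were higher, from Hmgcs1 at 2.45-fold to Idi1, an isoprenoid isomerase, at 5.87-fold. Hmgcs1, the first committed synthase of the pathway, was no longer past 2-fold with TMM factors (log2 0.92). Of 12 measured genes for fatty acid uptake, storage and oxidation, 4 were higher and none lower. The higher ones were Fabp5, the lipid droplet proteins Plin2 and Plin3, and the peroxisomal isomerase Ech1, and Plin3 and Ech1 dropped under 2-fold with TMM factors (log2 0.66 and 0.75).

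Of 9 listed genes of MHC class II, which presents peptides to CD4+ T cells, 3 were measured, and all 3 were higher (median 6.38). The 9 genes gave 609 counts together in the Sftpc wells. In the other kept wells they gave 35, fewer than 1 gene needs to be measured. No measured gene of this list could therefore come out lower, and the count minimum set the direction of its calls and median. Cd74, the invariant chain, ranged from 0 to 5597 CPM (median 1241), was detected in 59 of 63 Sftpc wells and 21 of 164 others (93.9% and 5.00% after thinning), and was 55.4-fold higher (38.0 to 83.9). The log2 ratio of Cd74 was 6.25 within the second set and 4.21 within the third, and Cd74 had too few counts within the first. H2-Aa was 120-fold higher (45.4 to 446). H2-Ab1 gave 59 counts in 26 Sftpc wells and 0 elsewhere, at least 83.2-fold higher against the same floor. None of the 7 measured class I genes was called. H2-K1 and H2-D1, class I heavy chains with similar sequences, stood at 1.92-fold and 1.96-fold. Both were past 2-fold against the wells with both chosen genes under 1% (2.22-fold and 2.01-fold) and within the second set (log2 1.26 and 1.11), and under it within the first (-0.03 and -0.45) and the third (0.49 and 0.53).

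Markers of other cell types were counted because the leading genes include lysozymes and MHC class II genes, which leukocytes also express. Of the 15 immune markers, 13 were at 0 in all 63 Sftpc wells, among them Ptprc (the CD45 of the gate), Tyrobp, Fcer1g, Coro1a and Marco. The list sum of 1828 CPM was Lyz1 but for 1 count of Cd68. With 3 wells taken as the limit that 0 of 63 allows, up to 4.76% of wells could hold a count (5.69% as the upper exact bound, as for Ltf at 0 of 63). This limits wells with a count and not cells expressing the gene. The endothelial, mesenchymal, neuroendocrine with tuft, and erythroid lists summed to 16.6, 8.31, 12.5 and 8.31 CPM, with 6, 9, 8 and 3 of their genes at 0. Of the ciliated cell list, Foxj1, Ccdc153, Rsph1, Tmem212 and Mcidas were at 0, and Sec14l3, also expressed outside ciliated cells, was lower at 420 against 1658 CPM. Epcam, the positive marker of the gate, was detected in 27 Sftpc wells at 129 CPM against 83.5, and Cd24a in 39 wells at 341 CPM against 525.

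Among 16 measured lung transcription factors, 6 were higher and 2 lower. Etv5, an ETS factor downstream of FGF signalling, ranged from 0 to 2534 CPM with a median of 612 and was detected in 52 of 63 Sftpc wells and 8 of 164 others (79.6% and 4.38% after thinning). It was 89.9-fold higher (44.6 to 212). Cebpa, a C/EBP factor of alveolar and liver cells, was 4.85-fold higher (3.40 to 6.93). The others higher were Nkx2-1, Foxa2, Id2 and Creb3l1, and those lower were Sox2, an airway factor at 1 count in the Sftpc wells, and Klf5. The signalling list for FGF, Wnt, BMP and Notch had 4 of 15 measured genes higher and 4 lower (median -0.26). The receptor Fgfr2 was 5.83-fold higher (4.23 to 8.06), with the FGF feedback inhibitor Spry1, Etv5 and Id2, and Ccnd1, Porcn, Id1 and Nrarp were lower. Ccnd1, cyclin D1, stood at 370 against 758 CPM, but its log2 ratio was -0.39 within the third set and -0.52 within the first.

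Alveolar type 1 markers divided. Ager, a receptor abundant in type 1 cells, ranged from 0 to 3723 CPM (median 685) and was detected in 59 Sftpc wells and 39 others (85.7% and 16.9% after thinning). It was 11.8-fold higher (9.14 to 15.4), but 6.16-fold against the wells with both chosen genes under 1%. Against those with Scgb3a1 at 1% or more it was 122-fold higher. The log2 ratio of Ager was 3.78 within the second set and 1.90 within the third. Emp2 and Cldn18 were also higher, Emp2 with a log2 ratio of 0.84 within the third set. Cldn18 is also counted above among the genes known from alveolar type 2 cells. Pdpn, the podoplanin of type 1 cells, had 0 counts in all 63 Sftpc wells and 115 CPM elsewhere, at least 9.22-fold lower, and Krt7 was 2.15-fold lower. Krt7 fell short of 2-fold against the wells with both chosen genes under 1% (0.652 times their level, 0.407 to 1.01), without the Sftpc wells at 1% Scgb1a1 or more (log2 -0.60) and without the second set (-0.81). Pdpn stood at 226 CPM in the wells with Scgb3a1 at 1% or more and at 1.98 CPM in those with both chosen genes under 1%. The remaining 5 measured type 1 genes, Hopx and Aqp5 among them, were neither. The transitional epithelium list, of genes known from injured alveoli, had 2 of 19 higher (Areg and S100a10) and 11 lower (median -1.11, and -0.62 against the wells with both chosen genes under 1%). Krt8, the keratin that gives such cells their name, ranged from 0 to 4469 CPM in the Sftpc wells. It stood at 490 CPM, against 903 CPM in the wells with both chosen genes under 1% and 1834 CPM in those with Scgb3a1 at 1% or more.

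**Figure D3:**
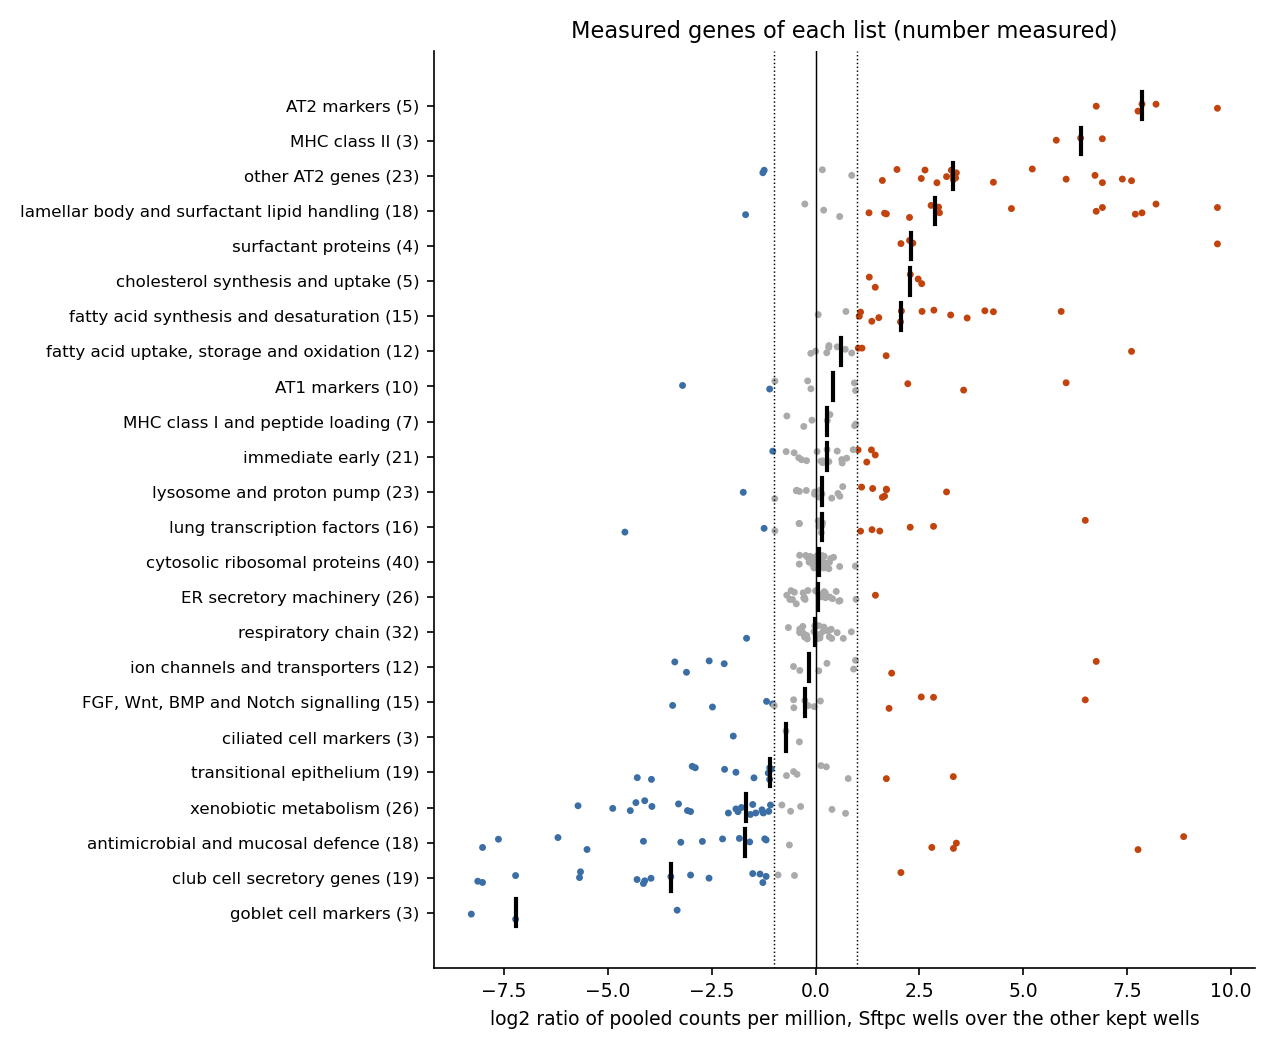
Each point is a measured gene, Sftpc and Scgb3a1 included, placed by the log2 ratio of its pooled CPM in the Sftpc wells over that in the other kept wells, with a bar at the list median and dotted lines at 2-fold. Alveolar type 2, MHC class II, surfactant and lipid synthesis lists lie to the right (medians 2.07 and above) and club and goblet lists to the left. Medians near 0 depend on the scaling: with TMM factors those of MHC class I, immediate early, lysosome, transcription factor, ER and ribosomal genes turn negative.

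Most club cell genes were lower. Of 18 measured genes of the club list, Scgb3a1 left out because it chose the wells, 15 were lower and 1, Sftpd, was higher (median -3.25), and of 26 measured genes for xenobiotic metabolism 21 were lower and none higher (median -1.68, and -0.82 within the first set). Scgb1a1, whose promoter drives the recombinase, ranged in the Sftpc wells from 278 to 243412 CPM (0.03% to 24.3% of counts, median 0.97%), against a median of 27.4% in the other kept wells. Every Sftpc well held at least 1 count. The controls and 11 nearly empty sorted wells (totals up to that of the higher control) held up to 36, and 31 of 63 Sftpc wells exceeded all of these. Scgb1a1 at 1% or more was found in 31 Sftpc wells and at 10% or more in 5. Cyp2f2, a club cell cytochrome, ranged from 0 to 12151 CPM and was 8.06-fold lower. Scgb3a2, a secretoglobin of the small airways, was at 0 in 34 Sftpc wells and 19.7-fold lower. After thinning, 46.9% of Sftpc wells and 96.9% of the others held a count of it. Cbr2, by contrast, was detected in every Sftpc well at 1848 to 26438 CPM and was 2.41-fold lower, and Hp, haptoglobin, was 2.53-fold lower. Both fell short of 2-fold against the wells with Scgb3a1 at 1% or more (log2 -0.71 and -0.54) and within the first set (-0.59 and -0.09).

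The lowest ratios belonged to genes of the wells rich in Scgb3a1. Tff2, a trefoil peptide, gave 1 count in the Sftpc wells, 31.7 CPM in the wells with both chosen genes under 1% and 2547 CPM in the wells with Scgb3a1 at 1% or more. Bpifa1, a secreted airway defence protein, stood at 54.0, 39.6 and 27752 CPM in the same order, Reg3g, an antimicrobial lectin, at 16.6, 21.8 and 6538 CPM, and Bpifb1 at 66.5, 43.5 and 5941 CPM. For Bpifa1, Reg3g and Bpifb1 the difference lay against the wells rich in Scgb3a1, with no called difference from the others. Of the 16 Bpifb1 counts, 75.0% came from 1 well. The mucin Muc5b gave 2 counts, and Ltf, lactoferrin, gave 0 and was at least 73.7-fold lower than in all other kept wells. Of 18 measured antimicrobial and mucosal defence genes, 12 were lower and 5 higher (Lyz1, Lyz2, Cxcl15, Lcn2 and Chia1), with a median of -1.71 but -0.42 within the third set. Against the wells with both chosen genes under 1% that median was -0.27. All 3 measured goblet markers (Muc5b, Tff2 and Agr2) were lower than in all other kept wells (median -7.22). The 7 listed goblet genes gave 5 counts in the Sftpc wells together, so any measured one had to come out lower. Lower too were the basal keratin Krt15 at 1 count and, of the mesothelial list, Krt19 and Msln. Most counts of these goblet, basal and mesothelial genes lay in the wells rich in Scgb3a1. Agr2 and Msln, at 0 in the Sftpc wells, gave 124 and 53 counts there but 4 and 1 in the wells with both chosen genes under 1%, too few for a fold. Against the latter wells the log2 ratios of Muc5b, Krt15 and Krt19 were -3.42, -1.93 and -2.03. That of Krt15 rests on 1 count in the Sftpc wells, and the whole basal list gave 8 in the latter wells, too few for a firm ratio. Cp, ceruloplasmin, differed from both classes, at 20.8 CPM against 871 and 1265 CPM, as did Lypd2 at 24.9 against 463 and 2087 CPM.

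Ribosomal protein, respiratory chain and ER secretory genes differed little, and lysosomal and transport genes differed more. None of 40 cytosolic ribosomal protein genes was called (median 0.08), nor was any of 32 respiratory chain genes but Sdhd, a succinate dehydrogenase subunit, which was lower at 5 counts (median -0.01). Of 26 measured ER secretory genes, 1 was higher, the co-chaperone Dnajb9 at 2.71-fold (1.57 to 4.60), and none lower. Hspa5, the main ER chaperone, stood at 602 against 551 CPM. Of 23 lysosomal genes 7 were higher and 1 lower (median 0.15), led by Ctsc, a dipeptidyl peptidase, at 8.89-fold (6.88 to 11.6). The 1 measured proliferation gene, Pcna, stood at 108 against 87.4 CPM. Of 12 ion channels and transporters, Slc34a2 and Car8, a carbonic anhydrase-related protein, were higher and 4 were lower, among them the sodium channel subunits Scnn1b and Scnn1g.

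Immediate early genes, known to respond to tissue dissociation, had 4 of 21 measured members higher and 1 lower (median 0.28, and -0.09 with TMM factors). Over all measured genes 13.4% were higher and 12.1% lower, so these few calls do not set the list apart. Jun ranged from 0 to 4313 CPM (median 1459) and was 2.54-fold higher (2.23 to 2.88), Jund 2.70-fold, Egr1 2.35-fold and Fos 2.03-fold. With TMM factors Jun, Egr1 and Fos dropped under 2-fold (log2 0.97, 0.86 and 0.65). Within the third set Egr1 and Fos did too, at 0.61 and 0.63. Egr1 was also under 2-fold against the wells with both chosen genes under 1% (0.87), and Fos against the wells with Scgb3a1 at 1% or more (0.91), within the second set (0.96) and without the first (0.82).

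The Sftpc wells varied among themselves. Variation was expressed as the excess coefficient of variation (CV), the spread of a gene's share of counts beyond counting error. Over 105 genes with at least 200 counts in the 63 wells, its median was 30.6%, and over the 44 ribosomal protein genes among them 18.0%. It was 100% or more for 5 genes: Scgb3a2 (346%), Stxbp3-ps (252%), Scgb1a1 (204%), Cyp2f2 (180%) and Hp (121%). These are 4 club cell genes and a pseudogene. Next came Egr1 (96.7%), the small RNA gene Rn4.5s (93.7%), the nuclear RNA Malat1 (84.1%), Scd1 (80.3%) and Cd74 (74.7%). Of the markers, Lyz2 varied most (57.4%), and Lamp3 was at 36.7% and Sftpc at 37.3%. Stxbp3-ps gave 65 counts in 1 control, and no Sftpc well held more. Its excess CV was 38.2% among wells with over 4000 counts.

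**Figure D4:**
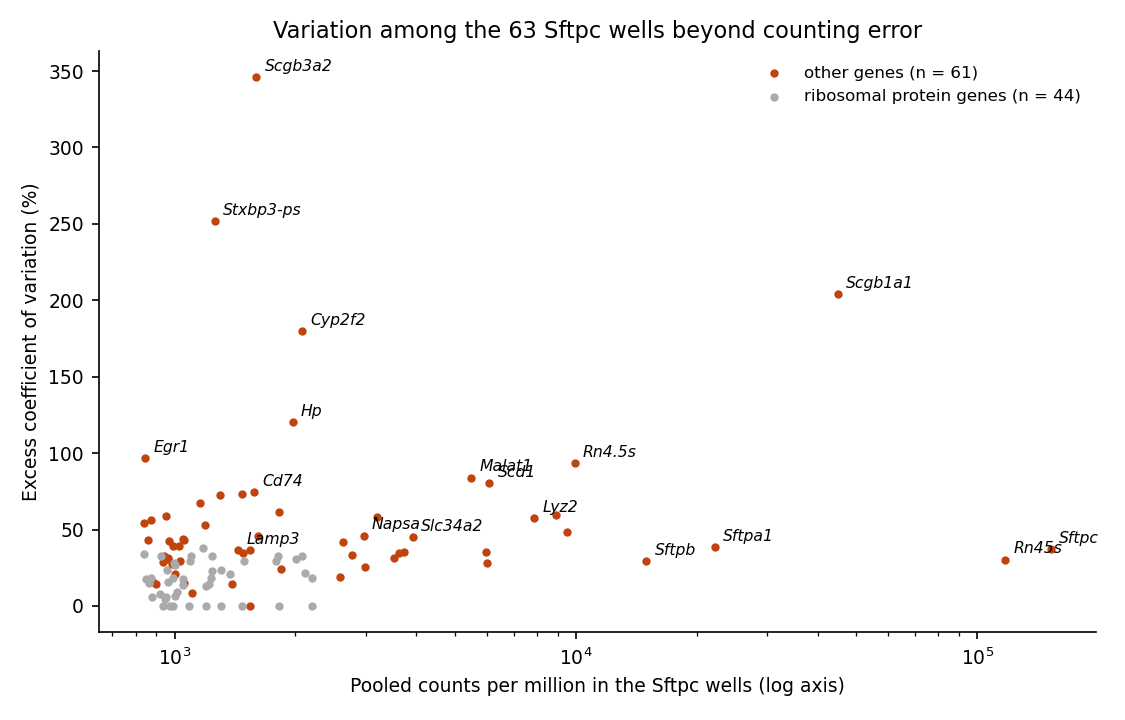
Excess CV (percent) of 105 genes among the 63 Sftpc wells against their pooled CPM on a log axis, with grey points for the 44 ribosomal protein genes and excesses at or below 0 drawn at 0. Scgb3a2, Stxbp3-ps, Scgb1a1, Cyp2f2 and Hp lie above 100%, and the markers lie between 36.7% and 57.4%.

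A few wells carried much of this spread. The 5 Sftpc wells with Scgb1a1 at 10% or more held 19.7% to 24.3% Scgb1a1 and 2.07% to 9.80% Sftpc, on totals of 4798 to 8806 counts, against the class median of 3529. They held 24 to 107 counts of Cyp2f2 and 12 to 174 of Scgb3a2, and at the same time 6 to 60 counts of Lyz2 and 4 to 10 of Napsa. Of these wells, 3 were of the first set and 1 each of the other two. Without them the excess CV of Sftpc was 16.8% and those of Cyp2f2, Hp and Scgb1a1 were 77.0%, 73.8% and 134%. The counts of called genes were 364 higher and 332 lower without them, against 341 and 306 with them. The number measured without them is not given. Whether such wells held 1 cell or more was not tested.

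Across the 63 Sftpc wells, club genes ran together. By Spearman's rho over wells, which share a library preparation and differ in depth, Scgb1a1 went with Hp (0.48), Cbr2 (0.44) and Cyp2f2 (0.43), and within the 40 wells of the third set the values were 0.47, 0.43 and 0.41. The total count went with Scgb1a1 too, at 0.43 and 0.28. The summed MHC class II genes ran the other way, with rho of -0.54 against Scgb1a1 over all wells and -0.61 in the third set. With Scgb1a1 left out of the total that MHC class II was scaled by, these values were -0.50 and -0.60. Summed MHC class II also ran against the total count (-0.29 and -0.30), and the part of depth was not tested. Cd74 led that sum, and 3 wells held no class II count. Sftpc itself went with Lyz2 (0.47), Slc34a2 (0.43), Scd1 (0.39), Sftpa1 (0.39) and Cxcl15 (0.33). In the third set these were 0.26, 0.32, 0.35, 0.20 and 0.24.

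**Figure D5:**
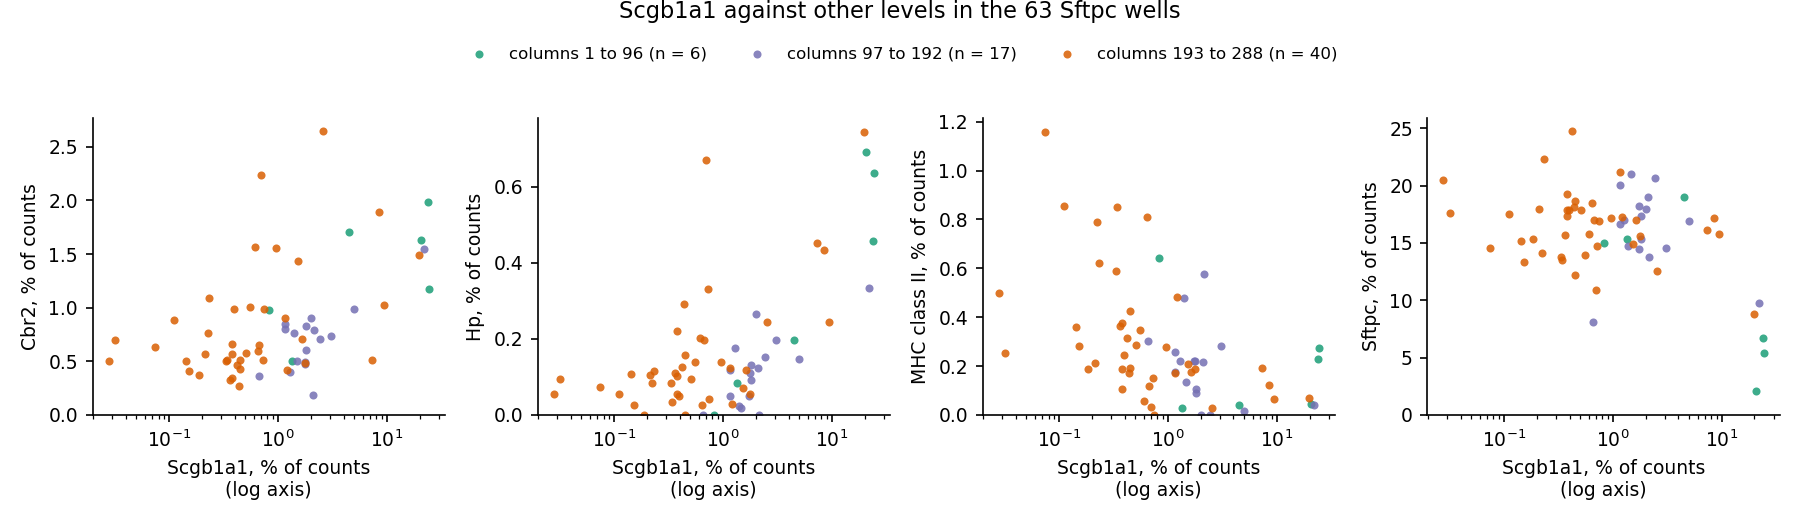
Cbr2, Hp, the summed MHC class II genes and Sftpc against Scgb1a1 in the 63 Sftpc wells, all as percent of counts, with Scgb1a1 on a log axis and colours for the 3 successive sets of 96 columns (6, 17 and 40 wells). Wells high in Scgb1a1 are mostly low in MHC class II (rho -0.54 over all wells), and the 5 wells over 10% Scgb1a1 lie at 2.07% to 9.80% Sftpc.

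The sets differed in these levels. Median Scgb1a1 in Sftpc wells was 12.5%, 1.81% and 0.45% of counts in the first, the second and the third set, and median totals were 5799.5, 3818 and 3272.5 counts. Nearly empty wells held 18 Scgb1a1 counts in the first set, 21 to 36 in the second and 3 to 16 in the third. The part of such background counts in the set medians was not tested. Median Sftpc was 10.8%, 16.9% and 17.0%. Without Sftpc, which chose the wells, the markers measured within a set had median log2 ratios of 6.84 over 2 markers (Lyz2 and Slc34a2) in the first, 8.05 over 4 in the second and 5.71 over 4 in the third. The club list without Scgb3a1 had a median of -1.74 within the first set and -2.43 within the third. In the first set Scgb1a1 itself was lower by less than 2-fold, with a log2 ratio of -0.78.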

How the data were processed

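Single cells in wells were profiled by 3′-primed RNA sequencing with molecular barcodes, per the labels' protocols, and the submitters' processing notes name STAR (version not given) and mm10. For the annotation, the counting tool and the collapse of barcodes, nothing is given in the sources used here. The authors deposited 1 table of whole-number counts, not normalized, for 24781 genes and 288 wells. All 288 columns matched a sample, 0 were unmapped, and no 2 wells held identical counts. The labels name no animal, so the cells were 1 sample.

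Wells with more counts than 10 times the higher control, above 2340, were kept, and 59 of 286 were removed. No doublet caller was run, and no further filter was applied. Counts were pooled per class and divided by the pooled total to give CPM, with exact Poisson intervals. Ratios carry exact conditional binomial intervals and shares exact Clopper-Pearson intervals, all at 95% and for counting error only. If barcodes were not collapsed, these intervals are too narrow. A gene at 0 counts in 1 class entered with 3 counts over the group, as a bound. Genes with at least 50 counts in both classes together were measured, and calls used 2-fold. Excess variation needed 200 counts in members. Wells were also thinned to 3000 counts, which left 49 members and 160 other wells and left out 14 and 4.

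The genes named are the 10 highest and 10 lowest ratios among genes with at least 200 counts, the 10 with most counts in members, the 3 of each list with most counts in members, called genes of lists with 5 or fewer calls, the 5 markers, the 10 most variable genes, and the 5 with the highest rank correlation with Sftpc and with Scgb1a1. Other list members are named as such or as seen afterwards. The members and the 33 gene lists were chosen with earlier results of these data known. Of 544 list symbols 541 were in the table, and 98 of 100 named genes matched 1 GENCODE M21 gene. Counts and medians of the marker, surfactant, lamellar body and club lists in the text leave out Sftpc and Scgb3a1. Counting is not stated to use strand. Alternatives were other Sftpc and total limits, scalings, count minimums, folds, comparison classes, sets and thinning. The calculation was tested on simulated data, in which counts for the ratios varied by counting error only. That test therefore does not cover intervals for wells that vary beyond counting error, as these did. Tools were Python 3.11.15, pandas 2.3.3, scipy 1.17.1, biopython 1.88 for alignment, and edgeR 4.0.16 in R 4.3.3 for the TMM factors only.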

Additional observations from a re-analysis of the deposited data

Results flagged for a closer look

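Among the 59 sorted wells removed for their low totals, 27 held Sftpc at 1% or more of their counts, while both controls held 0 Sftpc counts. They were flagged as a signal in wells that no comparison used. Of these, 16 held over 100 Sftpc counts, on totals of 1035 to 2243. In those 16 pooled, Sftpc stood at 153641 CPM, Lyz2 at 5686, Napsa at 3234, Slc34a2 at 3909, Lamp3 at 1244, Scd1 at 6646 and Cd74 at 2381 CPM. By position in the table, 6 were of the first set, 1 of the second and 9 of the third. Lowering the total limit to 1000 counts raised the number of Sftpc wells from 63 to 80.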

How the results depend on the processing

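The number of Sftpc wells was 57 to 64 under other Sftpc and Scgb3a1 limits and 19 with totals above 4000. Called genes (main 341 higher, 306 lower) numbered 215 higher with totals above 4000. They were 212 and 470 with TMM factors, 888 and 708 at a minimum of 20 counts, 63 and 89 at 200 counts, 652 and 506 at 1.5-fold, and 110 and 121 at 4-fold. Against the wells with both chosen genes under 1% they were 216 and 141, and 171 and 187 after thinning to 3000 counts. Within the 3 sets they were 79 and 133 of 814 measured genes, 126 and 188 of 963, and 84 and 65 of 514. For the other settings that change the wells or the count minimum the number measured is not given, so those counts cannot be read as shares. Leaving out the first, the second or the third set gave 223, 195 or 227 higher, and leaving out the second gave 178 lower. Fewer wells or a higher minimum leave fewer measured genes by construction. The other 40 of 66 alternatives stayed within 1.5 times. Of 1655 alternative log2 ratios of 76 called genes, 1654 kept their direction and 1586 their side of 2-fold. The exception was Stxbp3-ps, at 2.42 and, with totals above 4000, -0.083, where the cause was not tested. The 76 genes include Sftpc, which chose the wells, and genes named for their highest or lowest ratios. The alternatives reuse the same wells, so this tally describes the processing and is no independent support. The 12 lists with a median past 2-fold kept their direction in 257 of 257 alternatives and their side of 2-fold in 253. These lists include Sftpc and Scgb3a1. Near 0, the median for AT1 markers (0.41) was -0.19 within the second set, and that for the signalling list (-0.26) was 0.94 there. The alternatives without the 5 wells of at least 10% Scgb1a1 and without ciliated-marker wells were chosen after seeing the data. No paired analysis was possible because title numbers name only wells and no test was made. A member's median of 3529 counts limits what can be detected, so a gene absent from a well may be expressed there.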
